A study of Mus musculus with 23 samples.

Results

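The kynurenine pathway was followed through 9 genes, Tdo2, Ido1, Ido2, Afmid, Kmo, Kynu, Haao, Acmsd, and Qprt, which were chosen by name as the enzymes that lead from tryptophan to kynurenine and on to NAD. All 9 were found among the 48897 genes of the RNA-seq table. The RNA came from male BALB/c mice aged 4 to 6 weeks that all underwent the same cecal operation. In 5 sham-operated mice (C1, C4, C5, C6, and C7), only serum-free medium was injected, and their livers are the control livers. In 9 mice (M1, M2, M4, M5, M6, M7, M8, M10, and M12), CT26 cells, a colon carcinoma line derived from BALB/c mice, were injected into the cecal wall, and each mouse gave a liver (pre-metastatic liver) and a primary tumor after 3 weeks. All tumors therefore grew from 1 cell line, and every library is bulk tissue.

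Most tryptophan that is not built into protein is degraded through this pathway, and the liver is its main site. Tdo2, the hepatocyte dioxygenase that glucocorticoids and tryptophan are known to induce, opens the indole ring, and so do Ido1, which interferon gamma induces in dendritic cells, macrophages, and many tumor cells, and its weaker relative Ido2. Afmid, a formamidase, releases kynurenine, which Kmo and Kynu convert to hydroxyanthranilate. Haao then makes an unstable semialdehyde, at which the pathway branches: Acmsd leads it away to full oxidation, while the semialdehyde that escapes becomes quinolinate, which Qprt turns into a precursor of NAD. Loss of tryptophan and gain of kynurenine, a ligand of the aryl hydrocarbon receptor, are both known to restrain T cells.

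Total counts per library were 51064615 to 60393702 in control liver, 44587556 to 79773163 in pre-metastatic liver, and 47005276 to 70884436 in the primary tumor. The 8 hepatocyte markers, albumin (Alb) among them, summed to 49281 to 60490 RPKM in control liver, to 41920 to 86301 RPKM in pre-metastatic liver, and to 8.65 to 334 RPKM in the tumor. Of 7 colon epithelium markers, Krt20 was high in the tumors (65.4 ± 30.8 RPKM, SD, n = 9), whereas Epcam (0.305 ± 0.609 RPKM) and Cdh1 were lower there than in pre-metastatic liver and Vil1 was at 0.0729 ± 0.147 RPKM. The labels give no batch or time of day, but 6 clock genes set the livers of C7, M1, M2, M10, and M12 (late phase) apart from the other 9 (early phase, 4 control and 5 pre-metastatic livers). The members are therefore also given for the early phase alone and with the phase as a covariate, and for the other gene lists the calls that these fits lost or gained are named.

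The sequences upstream of 2 genes are shown, because Tdo2 and Qprt stand at the entry and the NAD end of the pathway and had different levels in pre-metastatic and control liver. Each run is the 250 bases before the start site, 5′ to 3′ on the gene's strand, in RefSeq's GRCm38.p6: chr3:81975729-81975978 on the minus strand for Tdo2 and chr7:127122030-127122279 on the minus strand for Qprt. Capitals mark matches to 6 motifs searched on both strands.
Tdo2: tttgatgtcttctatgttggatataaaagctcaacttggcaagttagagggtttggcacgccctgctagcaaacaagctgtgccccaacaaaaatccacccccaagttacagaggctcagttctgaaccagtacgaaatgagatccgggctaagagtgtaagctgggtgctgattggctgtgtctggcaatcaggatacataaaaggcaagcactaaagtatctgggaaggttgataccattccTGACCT
Qprt: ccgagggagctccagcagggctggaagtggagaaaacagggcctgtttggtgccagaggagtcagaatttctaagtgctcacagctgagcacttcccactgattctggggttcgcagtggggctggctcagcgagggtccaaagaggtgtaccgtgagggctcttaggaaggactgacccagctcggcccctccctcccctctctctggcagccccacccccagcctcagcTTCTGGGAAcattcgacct
The nuclear receptor half-site AGGTCA, read here as TGACCT, matched directly before the start site of Tdo2 (bases -6 to -1), and 14% of 32851 such windows hold it. The STAT motif TTCNNNGAA matched in Qprt (bases -19 to -11), as in 7.02% of windows. The E-box CACGTG (6.02% of windows), the D-box TTANGTAA (2.06%), the glucocorticoid half-site TGTTCT (16.1%), and the HNF1 half-site GTTAAT (6.43%) had no match in these 2 windows. A match is a description of the letters and not a bound site. In all, 6 of the 9 genes were matched to a RefSeq window (also Acmsd, Afmid, Kmo, and Haao, not shown), and Ido1, Ido2, and Kynu were not.

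Pre-metastatic liver had less Tdo2 and Afmid RNA and more Qprt RNA than control liver. By edgeR's quasi-likelihood test with Benjamini-Hochberg adjustment over the 16989 genes that reached 10 counts in 5 or more livers, 4 of the 8 members tested were lower than in control liver (Tdo2, Afmid, Kynu, and Acmsd) at an adjusted p under 0.05. Ido2 and Qprt were higher, and Kmo and Haao did not pass. Among all genes tested, 17.7% were higher and 13.3% lower by the same rule. In bulk tissue, fewer cells of a type and less RNA per cell cannot be told apart. Levels are given as RPKM (counts scaled to the gene's length and to the total counts of the library), and differences as edgeR's log2 fold change. Its standard error was worked out from the log2 fold change and the F statistic of the test.

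**Figure D1:**
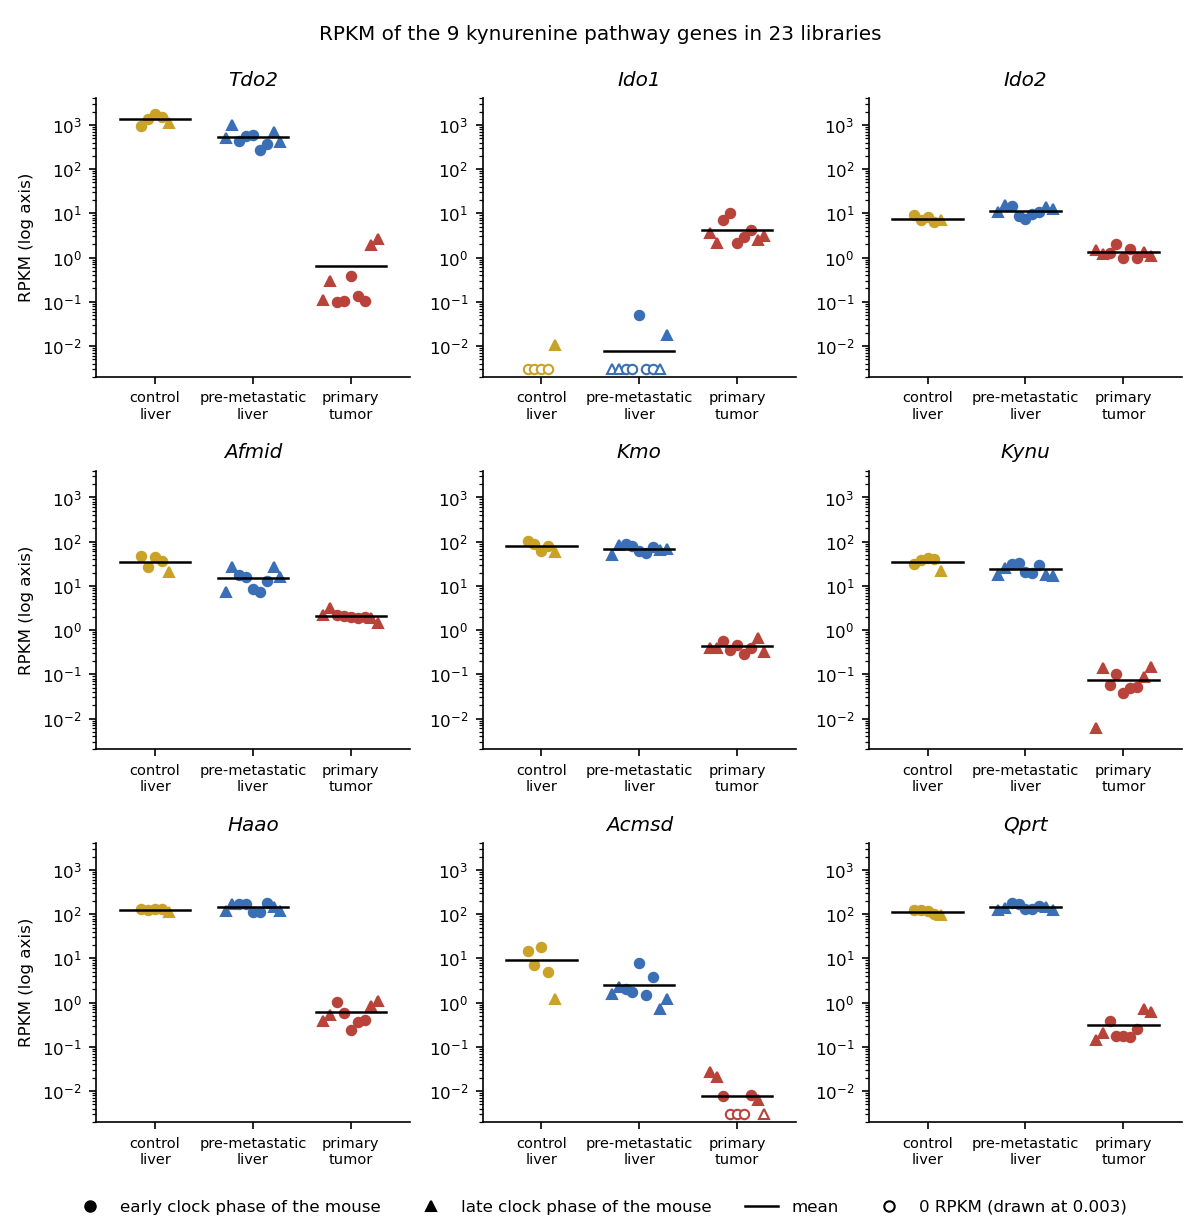
RPKM (log axis) of each of the 9 genes in every library of control liver (n = 5), pre-metastatic liver (n = 9), and primary tumor (n = 9), with bars at the means, circles and triangles for early-phase and late-phase mice, and open symbols for 0 RPKM. Ido1 is the only one of the 9 genes that is higher in the tumor than in both livers, and Tdo2 spans from 1781 RPKM in a control liver to 0.0984 RPKM in a tumor.

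Tdo2 was the most abundant member in every liver. Its level was 965 RPKM in C1, 1344 in C4, 1781 in C5, 1546 in C6, and 1107 in C7. In pre-metastatic liver it was 271 RPKM at the lowest (M7), 507 at the median, and 984 at the highest (M2). The groups overlapped only through M2, which lay just above C1. Tdo2 fell by 1.25 ± 0.23 on the log2 scale (adjusted p = 0.00095), a 2.38-fold difference. Among early-phase livers alone, the mean was 1409 ± 346 RPKM (SD, n = 4) in control and 449.7 ± 137 RPKM (n = 5) in pre-metastatic liver, and the log2 fold change was -1.58 ± 0.25 (adjusted p = 0.0018).

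Ido1 was barely counted in liver. It had 0 counts in 4 of 5 control livers and in 7 of 9 pre-metastatic livers, and 1 count in C7, 2 in M12, and 5 in M6. A library at 0 allows for up to 3 counts at these depths, and Ido1 was below the filter and not tested between the livers in the main fit. It did not pass in edgeR without the filter (log2 fold change 1.6 ± 1.3, adjusted p = 0.44) or in the exact rank-sum test of RPKM (p = 0.67, unadjusted).

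Ido2 rose modestly. It was at 9.38, 7.12, 8.21, 6.44, and 6.92 RPKM in C1, C4, C5, C6, and C7, and at 7.63 (M6), 10.8, and 15.6 RPKM (M2) as the lowest, median, and highest pre-metastatic livers. The log2 fold change was 0.66 ± 0.17 (adjusted p = 0.0078). The ranges overlapped, as M5 and M6 lay under C1. Among early-phase livers the difference was smaller and did not pass (0.45 ± 0.19, adjusted p = 0.11). The share of Ido2 in the summed RPKM of the 3 dioxygenases was 0.597% ± 0.219 (SD, n = 5) in control and 2.29% ± 0.795 (n = 9) in pre-metastatic liver, and the ranges did not overlap. Tdo2 still made up 97.7% ± 0.793 of that sum in pre-metastatic liver. The share of Ido2 moved with both genes, as mean RPKM was 2.5-fold lower for Tdo2 and 1.51-fold higher for Ido2. How often such shares of other genes do not overlap was not counted, so the gap cannot be read as particular to Ido2.

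Afmid, the second step, fell with Tdo2. Control livers had 48.0, 26.8, 44.5, 36.3, and 21.0 RPKM (C1, C4, C5, C6, and C7), and pre-metastatic livers had 7.29 (M7) at the lowest, 15.8 at the median, and 26.6 (M10) at the highest. The groups overlapped through C7, the late-phase control, as M2 and M10 lay between C7 and C4. The log2 fold change was -1.16 ± 0.30 (adjusted p = 0.0092), and it was -1.63 ± 0.24 among early-phase livers (adjusted p = 0.0014). Afmid shares 169 bases with Tk1, a thymidine kinase gene on the opposite strand that was at 5.48 RPKM in control and 6.73 RPKM in pre-metastatic liver. Whether the reads were counted by strand is not given in the sources used here, so reads from these bases cannot be assigned to either gene.

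Of the steps from kynurenine to the semialdehyde, Kynu alone passed the test over all 14 livers. Kmo, the hydroxylase, was at 78.5 ± 18.8 RPKM in control and 69.9 ± 12.9 RPKM in pre-metastatic liver, with values from 51.2 to 105 RPKM over both groups (log2 fold change -0.11 ± 0.15, adjusted p = 0.64). Kynu, the hydrolase, was at 31.8, 39.0, 41.8, 39.6, and 22.1 RPKM in C1, C4, C5, C6, and C7 and between 16.5 (M12) and 32.2 RPKM (M5) in pre-metastatic liver, with a median of 21.0 RPKM. Among pre-metastatic livers the late-phase ones were at 19.1 ± 3.94 RPKM (n = 4) and the early-phase ones at 27.0 ± 6.13 RPKM (n = 5), and the late-phase control was also the lowest control. The log2 fold change of Kynu was -0.51 ± 0.17 (adjusted p = 0.038), and it no longer passed in 9 of the 14 fits that left out 1 liver (adjusted p up to 0.11). Haao, the dioxygenase that makes the semialdehyde, was at 125 ± 8.48 RPKM in control and 145 ± 28.5 RPKM in pre-metastatic liver and did not pass (0.29 ± 0.11, adjusted p = 0.063), but passed with the clock phase as a covariate (0.33 ± 0.11, adjusted p = 0.039). Of the pre-metastatic livers, M2, M4, M5, and M8 lay at 172 to 176 RPKM and M1, M6, M7, and M12 at 115 to 118 RPKM, while M10 lay between them.

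At the branch, Qprt was higher in pre-metastatic liver, while the call of Acmsd depended on the livers and the fit used. Qprt was at 123, 123, 118, 101, and 93.8 RPKM in C1, C4, C5, C6, and C7, and at 125 (M1), 141.5, and 178 RPKM (M4) as the lowest, median, and highest pre-metastatic livers. Every pre-metastatic liver was above every control liver, as Qprt alone among the 9 genes did not overlap between the groups, while 10.9% of all genes tested did not overlap. The log2 fold change was 0.45 ± 0.10 (adjusted p = 0.0044), and it was 0.45 ± 0.11 among early-phase livers (adjusted p = 0.013). Acmsd was at 14.7 RPKM in C1, 6.97 in C4, 18.02 in C5, 5.0 in C6, and 1.23 in C7. In pre-metastatic liver it was 0.707 (M10), 1.70, and 7.76 RPKM (M6) as the lowest, median, and highest values. C7 thus lay among the pre-metastatic livers, and M6 among the controls.

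**Figure D2:**
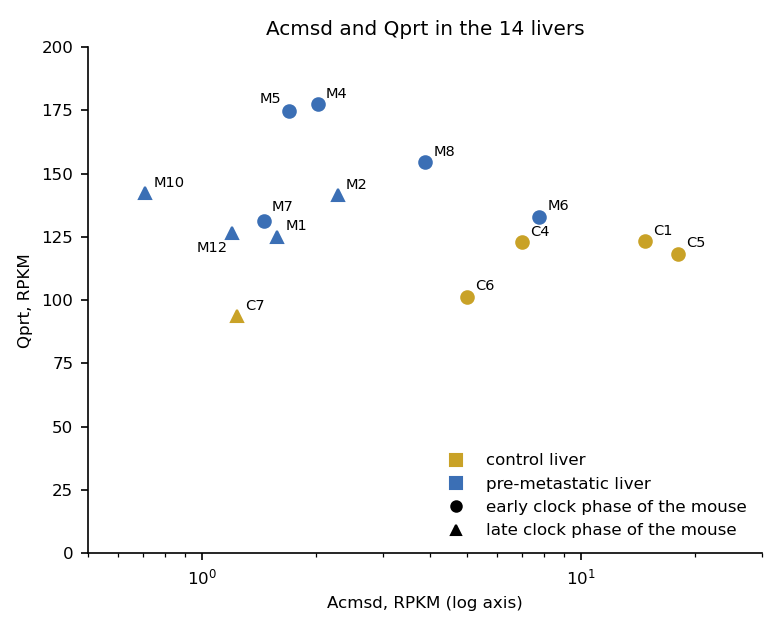
Acmsd (horizontal, RPKM, log axis) against Qprt (vertical, RPKM) in the 5 control and 9 pre-metastatic livers, each point named by its mouse, with circles for the early and triangles for the late clock phase. All pre-metastatic livers lie above 125 RPKM of Qprt and all control livers below, whereas along Acmsd C7 lies at 1.23 RPKM among the pre-metastatic livers and M6 at 7.76 RPKM among the controls.

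The log2 fold change of Acmsd was -1.78 ± 0.58 (adjusted p = 0.028). The call was lost without C1 (-1.51, adjusted p = 0.086) or without C5 (-1.41, adjusted p = 0.10). With the clock phase as a covariate it was -1.24 ± 0.53 (adjusted p = 0.088), and among early-phase livers -1.63 ± 0.57 (adjusted p = 0.058). In the late phase, the 1 control liver was at 1.23 RPKM and the 4 pre-metastatic livers were at 0.707 to 2.28 RPKM. Acmsd also overlaps the antisense noncoding genes Gm35993 (3.78 RPKM in control, 1.92 RPKM in pre-metastatic liver) and 2900009J06Rik (0.828 and 0.786 RPKM). The ratio of Acmsd to Qprt within a library, which does not depend on how libraries are scaled, was -4.10 ± 1.38 on the log2 scale in control liver and -6.19 ± 1.0 in pre-metastatic liver. C7 (-6.25) lay within the range of the pre-metastatic livers, from -7.65 in M10 to -4.10 in M6. The log2 ratio of Tdo2 to Kmo was 4.10 ± 0.60 in control and 2.88 ± 0.53 in pre-metastatic liver, and that of Kynu to Kmo was -1.18 ± 0.44 and -1.60 ± 0.24.

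**Figure D3:**
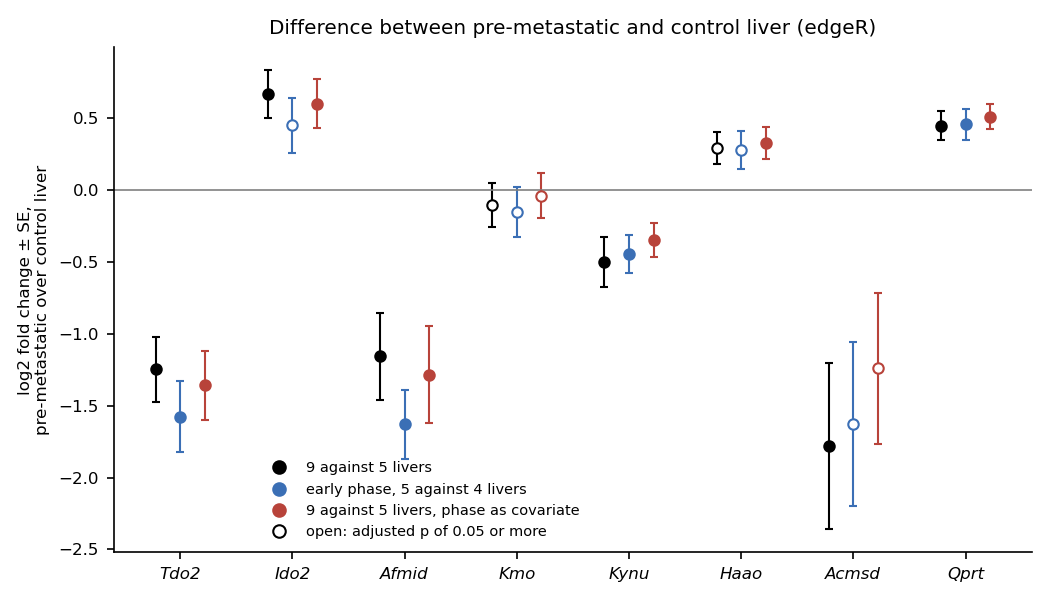
Log2 fold change of pre-metastatic over control liver (points) with its standard error (bars) for the 8 members tested by edgeR, in all 14 livers, in the 9 early-phase livers, and in all livers with the clock phase as a covariate; open points did not pass an adjusted p of 0.05. Tdo2, Afmid, Kynu, and Qprt passed in all 3 fits, Ido2 and Haao in 2 and 1 of them, and Acmsd in the first alone.

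Over the 9 early-phase livers, 3 members were lower (Tdo2, Afmid, and Kynu) and 1 was higher (Qprt), where 14.5% of 16677 genes were higher and 10.8% lower. With the clock phase as a covariate, the same 3 were lower and Ido2, Haao, and Qprt were higher, where 17.4% of genes were higher and 13.5% lower.

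In the primary tumor, Ido1 was higher and the other 8 members were lower than in liver, with Afmid and Ido2 keeping more of their level than the rest. Against pre-metastatic liver, 8 of the 9 members were lower and Ido1 was higher, where 43.8% of 19751 genes tested were higher and 39.5% lower. Against control liver, the same 8 were lower and Ido1 was higher, where 44.2% of 19322 genes were higher and 38.1% lower. These comparisons share the tumor libraries. No member's values in the tumors overlapped with those in either liver. The share of all genes without such overlap was not counted for the tumor, so this cannot be read as particular to the pathway. RPKM divides by all counts of a library, and the median gene was 1.30 log2 units higher in tumor than in pre-metastatic liver on that scale and 0.13 higher in the fit, so the fitted falls are larger than the ratios of RPKM, and the fitted rise of Ido1 is smaller.

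Ido1 reached 2.17 RPKM in M6 at the lowest, 3.02 at the median, and 10.3 RPKM in M5 at the highest, with M4 next at 6.97 RPKM. These are 181 to 1056 counts per tumor, against 7 counts in the 9 pre-metastatic and 1 in the 5 control livers together. Per counted read, the level was 542 times that of pre-metastatic liver (95% exact interval of the counts, 263 to 1348) and 2097 times that of control liver (376 to 82832), and these intervals cover counting error only. The liver of M6 held 5 of the 7 counts, and without this mouse the ratio to pre-metastatic liver was 1768 (489 to 14608). The edgeR fit gave smaller changes, 7.74 ± 0.64 on the log2 scale against pre-metastatic liver (214-fold, adjusted p = 7.3e-10) and 9.52 ± 0.79 against control liver (732-fold). These fitted changes depend on the prior count because the livers are near 0. Ido2 was lower in the tumor, at 0.965 (M6) to 2.06 RPKM (M5), and fell by 4.31 ± 0.18 on the log2 scale against pre-metastatic liver (adjusted p = 1.7e-14).

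**Figure D4:**
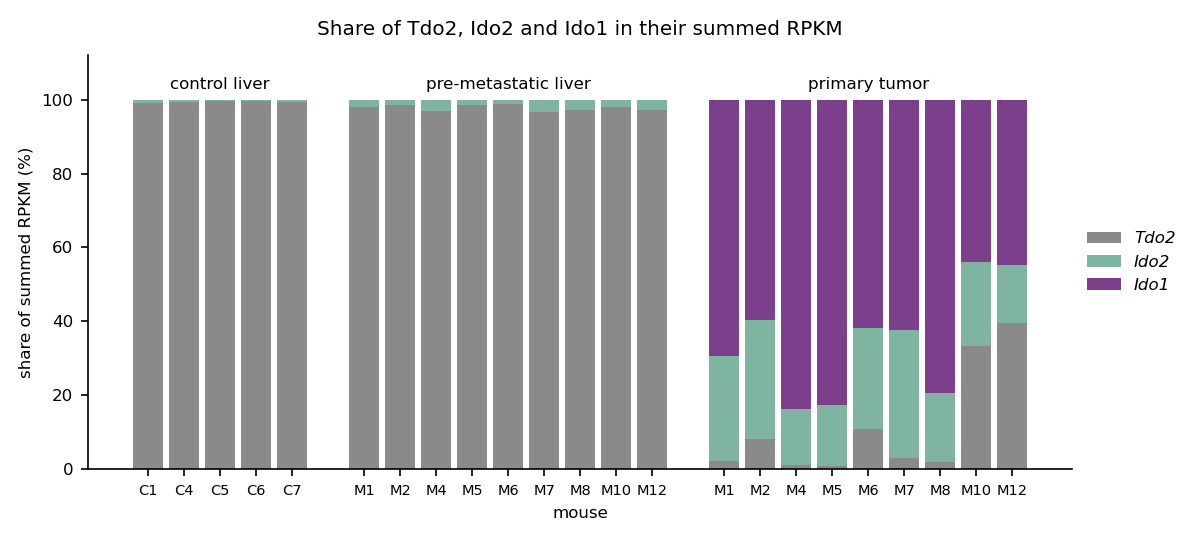
Share (%) of Tdo2, Ido2, and Ido1 in their summed RPKM in each of the 23 libraries, 1 bar per library named by its mouse and grouped by tissue. Tdo2 fills 96.6% or more of every liver bar, whereas Ido1 takes 44.0% to 83.8% of the tumor bars and Tdo2 exceeds 30% in tumors M10 and M12.

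In the tumors, Ido1 made up 65.3% ± 15.0 (SD, n = 9) of the summed RPKM of the 3 dioxygenases, Ido2 23.5% ± 7.49, and Tdo2 11.2% ± 14.8. These shares depend on the gene lengths used for RPKM, which are 7918 bases for Ido2, 1771 for Ido1, and 1635 for Tdo2. In counts over the 9 tumors, Ido2 was above Ido1 (5450 against 3835). The large spread of Tdo2 came from M10 (33.4%) and M12 (39.6%), since in the other 7 tumors it was at 0.848% to 10.7%. These were also the tumors with the highest Alb, at 86.4 and 173 RPKM where the other 7 had 2.97 to 15.0 RPKM, although the hepatocyte marker Hnf4a was highest in M2 (0.562 RPKM, against 0.372 in M10 and 0.535 in M12). Tdo2 itself was at 1.93 RPKM in M10, 2.68 in M12, and 0.0984 to 0.377 RPKM in the others. Its log2 fold change against pre-metastatic liver was -10.83 ± 0.89 (adjusted p = 6.4e-10). It was -11.55 without M12 and -12.64 ± 0.49 among early-phase mice, which include neither M10 nor M12.

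Below the first step, the log2 fold change against pre-metastatic liver was -9.98 ± 0.34 for Qprt, -9.43 ± 0.37 for Kynu, -9.24 ± 0.65 for Acmsd, -9.04 ± 0.33 for Haao, and -8.52 ± 0.19 for Kmo (adjusted p of 5.9e-11 or smaller). Afmid fell less, by 4.04 ± 0.25 (adjusted p = 8.0e-12). It kept 2.09 ± 0.438 RPKM in the tumors, where its overlapping neighbor Tk1 was at 36.01 RPKM. The log2 fold change of Acmsd was -8.62 without M6. Acmsd had 0 counts in 4 tumors and 10 counts in all 9, and per counted read its level in pre-metastatic liver was 288 times higher (95% exact interval, 156 to 601) and in control liver 1134 times (616 to 2365). Mean levels of the rest were 0.426 ± 0.121 RPKM for Kmo, 0.0754 ± 0.047 for Kynu, 0.615 ± 0.317 for Haao, and 0.316 ± 0.213 for Qprt.

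**Figure D5:**
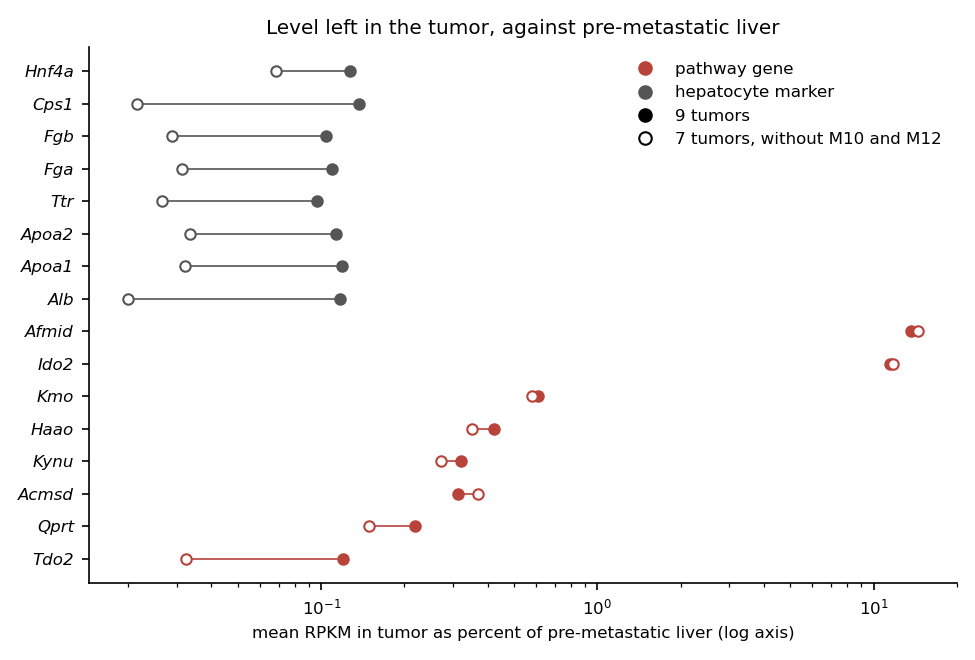
Mean RPKM in the tumor as percent of that in pre-metastatic liver (log axis) for the 8 members other than Ido1 (red) and 8 hepatocyte markers (gray), over all 9 tumors (filled) and without M10 and M12 (open). The medians of the markers are 0.115% and 0.0299%, and Tdo2 lies at 0.120% and 0.0324%. M10 and M12 had the highest Tdo2 and Alb, so leaving them out had to lower both. Qprt lies at 0.218% and 0.149%, Kmo, Haao, Kynu, and Acmsd stay above 0.27%, and Ido2 and Afmid stay above 11%.

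The 8 hepatocyte markers kept 0.0968% to 0.137% of their pre-metastatic liver level in the tumors (median 0.115%), and 0.0200% to 0.0687% (median 0.0299%) without M10 and M12, a subset formed after the values were seen. M10 and M12 had the highest Tdo2 and Alb, so the fall of both without these 2 tumors was fixed by the choice. Tdo2 kept 0.120% and, without these 2 tumors, 0.0324%. Qprt kept 0.218% and 0.149%, Kynu 0.321% and 0.271%, Haao 0.423% and 0.351%, and Kmo 0.609% and 0.580%. Acmsd kept 0.313% and 0.368%. Against pre-metastatic liver, Tdo2 thus lay within the range of the hepatocyte markers in both sets of tumors, and the other members lay above it. Against control liver, over all 9 tumors, the markers kept 0.0423% to 0.249%, and Acmsd (0.0855%) and Kynu (0.216%) lay within that range as Tdo2 did (0.048%). Ido2 kept 11.5% and Afmid 13.7% of the level in pre-metastatic liver.

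Markers of other cells also differed with the tissue. Macrophage markers (8 genes) summed to 67.1 to 140 RPKM in control liver, 144 to 415 in pre-metastatic liver, and 915 to 2835 RPKM in the tumor. Dendritic cell markers (8 genes) summed to 1.10 to 2.58, 2.49 to 5.73, and 72.4 to 114 RPKM, and T and NK cell markers (6 genes) to 0.768 to 2.48, 1.15 to 7.56, and 5.40 to 24.8 RPKM. The dendritic sum in the tumor was mostly Fscn1 (89.0 ± 12.6 RPKM, SD, n = 9), and the next highest of these markers, Zbtb46, was at 1.33 RPKM. Lyz2 likewise held most of the macrophage sum there (1400 ± 521 RPKM). Granulocyte markers (6 genes) spanned 5.85 to 17.8, 7.30 to 117, and 12.9 to 249 RPKM, and endothelial markers (6 genes) 13.8 to 32.8, 11.5 to 44.9, and 25.8 to 47.9 RPKM. In pre-metastatic against control liver, 6 of 8 macrophage, 3 of 8 dendritic, 5 of 5 granulocyte, 1 of 5 T and NK cell, 1 of 6 endothelial, and 3 of 5 colon epithelium markers tested were higher and none was lower. Among early-phase livers these counts were 5, 2, 5, 0, 0, and 2, as Adgre1, Ccr7, Cd4, and Stab2 were lost and Krt20 was below the filter and not tested. In that fit 4 T and NK cell and 4 colon epithelium markers were tested, and Lyve1, an endothelial marker, was lower. With the phase as a covariate they were 6, 2, 5, 2, 1, and 2, as Ccr7 and Vil1 were lost and Cd8a was gained. Krt20, a colon epithelium marker, had 213 counts over the 9 pre-metastatic livers, and 1 liver held 144 of them (median 0.0928, highest 1.31 RPKM). Of the 8 hepatocyte markers, the fibrinogen genes Fga and Fgb were higher and Cps1 and Hnf4a lower. In the tumor against pre-metastatic liver, 4 of 8 macrophage, 5 of 8 dendritic, 5 of 6 T and NK cell, 2 of 5 granulocyte, and 1 of 6 endothelial markers were higher, and 3, 2, 1, 0, and 4 of them were lower. The part of these cells in the levels of the members was not tested.

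The genes around the pathway were followed by lists. Of 7 genes tested for kynurenine aminotransferases and the glutarate branch, 3 were lower in pre-metastatic than in control liver and 1 was higher, with a median log2 fold change of -0.29 against 0.01 for all genes. Aadat, the main kynurenine aminotransferase, went from 43.4 to 24.7 RPKM (-0.76 ± 0.17, adjusted p = 0.0035), Dhtkd1 from 24.1 to 14.5 RPKM (-0.67, adjusted p = 0.013), and Got2 from 238 to 184 RPKM (-0.29, adjusted p = 0.034). Kyat1, another aminotransferase, went from 22.3 to 27.6 RPKM (0.38, adjusted p = 0.049). The call of Kyat1 was lost among early-phase livers (adjusted p = 0.33) and with the clock phase as a covariate (adjusted p = 0.081), while Gcdh, the glutaryl-CoA dehydrogenase, was lower in both (-0.48 and -0.38). In the tumor all 7 were lower than in either liver, with Aadat at 0.0173 and Aldh8a1 at 0.101 RPKM, and with Kyat3 and Kyat1 at 0.234 and 0.644 RPKM.

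Of 10 genes tested for other NAD synthesis, 2 were lower in pre-metastatic liver and none was higher. They were Naprt, which starts NAD synthesis from nicotinic acid (from 87.2 to 62.6 RPKM, -0.40 ± 0.07, adjusted p = 0.00054), and the NAD kinase Nadk (from 72.1 to 50.7 RPKM, -0.43, adjusted p = 0.0072). Both calls held in the early-phase and the covariate fit. Qprt, the member that feeds the same product as Naprt, thus moved the other way. In the tumor, 8 of 10 were lower than in pre-metastatic liver and 1 was higher, and 8 were lower and 2 higher than in control liver. Naprt was at 1.01, Nadk2 at 5.79, and Nmnat3 at 0.253 RPKM there, all lower, while Nmnat2 was higher at 1.96 RPKM against 0.0363 RPKM in pre-metastatic liver.

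Other routes of tryptophan changed in 2 of 7 genes tested between the livers. Wars, the tryptophan tRNA ligase that interferon gamma is known to induce, went from 7.26 to 10.3 RPKM (0.60 ± 0.19, adjusted p = 0.026), and Maob, a monoamine oxidase, went from 70.1 to 50.7 RPKM (-0.39, adjusted p = 0.012). Both calls held in the early-phase and the covariate fit, and Ddc was lower in the latter (-0.89, adjusted p = 0.027). In the tumor, 3 of 8 were higher and 4 lower against each liver. Ddc (0.0680 RPKM), Maob (1.98 RPKM), and Inmt (23.1 RPKM) were among the lower genes, and Tph1, at 0.134 RPKM and 0 in pre-metastatic liver, was among the higher ones. Of 7 transporters of tryptophan and kynurenine tested, Slc7a8 (0.97 ± 0.20, adjusted p = 0.0022), Slc43a2 (0.64, adjusted p = 0.034), and Slc36a4 (0.47, adjusted p = 0.0087) were higher in pre-metastatic liver, and Slc16a10, an exporter of aromatic amino acids, was lower (-0.93 ± 0.18, adjusted p = 0.0014). The call of Slc43a2 was lost among early-phase livers (adjusted p = 0.15) and with the clock phase as a covariate (adjusted p = 0.059). In the tumor, 4 of 8 transporters were higher and 3 lower than in pre-metastatic liver (5 and 2 against control liver). Slc7a5, the large neutral amino acid transporter, was at 52.9 RPKM there against 1.46 RPKM in pre-metastatic liver, and Slc7a11 at 1.56 against 0.0126 RPKM, while Slc16a10 (1.08 RPKM) and Slc43a1 (0.0698 RPKM) were lower.

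Genes under signals known to act on the pathway were tested in the same way. Of 10 interferon gamma genes tested, 6 were higher in pre-metastatic liver and none lower, with a median log2 fold change of 0.83. They included Socs1 (1.14, adjusted p = 0.037), Irf8 (1.05, adjusted p = 0.0055), and Ifngr2 (0.69, adjusted p = 0.0014), while Ido1 stayed at 0 to 5 counts in the same livers. The call of Irf8 was lost among early-phase livers (adjusted p = 0.057), and with the clock phase as a covariate the same 6 passed. In the tumor, 8 of 11 were higher and 1 lower than in pre-metastatic liver (10 and 1 against control liver). Ifng itself was at 1.03 ± 0.762 RPKM against 0.0514 ± 0.0688 in pre-metastatic liver, Cxcl10 at 33.7 against 2.89, Socs1 at 25.7 against 1.35, and Irf8 at 21.9 against 3.95 RPKM.

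Of 8 glucocorticoid receptor genes and targets, Tat, the tyrosine aminotransferase that shares with Tdo2 its induction by glucocorticoids, fell from 997 to 291 RPKM in pre-metastatic liver (-1.74 ± 0.26, adjusted p = 0.00024). Zbtb16 was also lower (-1.25, adjusted p = 0.049), and the receptor gene Nr3c1 was higher (from 7.50 to 10.5 RPKM, 0.56, adjusted p = 0.0088). Zbtb16 passed among early-phase livers (-1.72, adjusted p = 0.014) but not with the clock phase as a covariate (-1.32, adjusted p = 0.075). The other 5 did not pass, among them Fkbp5 (-1.15 ± 0.61, adjusted p = 0.17) and Tsc22d3 (-0.41, adjusted p = 0.12), and the median of the list was -0.15. In the tumor, Tat (0.346 RPKM), Zbtb16 (0.0496 RPKM), and Mt2 (707 RPKM) were the 3 of 8 lower than in pre-metastatic liver, and none was higher. Against control liver, 2 were higher, with Sgk1 at 15.7 RPKM against 3.80 RPKM, and 4 were lower.

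Of 8 genes tested for the aryl hydrocarbon receptor and its targets, 3 were higher in pre-metastatic liver and 1 was lower. Tiparp (0.82 ± 0.18, adjusted p = 0.0036), Cyp1a2 (from 113 to 220.2 RPKM, 1.02 ± 0.34, adjusted p = 0.035), and Gpr35, a receptor of the kynurenine product kynurenate (1.22, adjusted p = 0.015), were higher, and Nqo1 was lower (-1.15 ± 0.19, adjusted p = 0.00039). The call of Cyp1a2 was lost among early-phase livers (adjusted p = 0.12) and with the clock phase as a covariate (adjusted p = 0.059). Gpr35 did not pass among early-phase livers (adjusted p = 0.077), where Cyp1b1 was higher instead (1.30, adjusted p = 0.024), and passed with the covariate (adjusted p = 0.023). Cyp1a1, a sensitive target of the receptor, was at 0.258 and 0.188 RPKM in control and pre-metastatic liver (-0.42 ± 0.40, adjusted p = 0.45). In the tumor, 2 of 9 were higher, among them Gpr35 at 2.32 RPKM, and 5 were lower than in pre-metastatic liver, among them Cyp1a2 at 0.115, Cyp1a1 at 0.0165, and Nqo1 at 0.649 RPKM (4 and 4 against control liver). Tiparp was at 15.5 RPKM in the tumor and 1.42 RPKM in pre-metastatic liver.

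The genes most like each member across the 14 livers, by Pearson's r of deviations from the group mean, are given as a description, since clock phase and other shared differences between livers were not removed. They were Prrc2b (r = 0.923) and Gm9920 (0.882) for Tdo2, Iyd (0.908) and Phf14 (0.902) for Ido2, and Atp5b (0.954) and Cyp4f15 (0.95) for Afmid. For the middle steps they were Ranbp9 (0.874) and Dpyd (0.84) for Kmo, Stx7 (0.908) and Dirc2 (0.901) for Kynu, and Mdh1 (0.945) and Magix (0.896) for Haao. For the branch they were Atp1b1 (0.915) and Fmn2 (0.913) for Acmsd and Gm40747 (0.887) and Zdhhc7 (0.882) for Qprt. No member was among the 2 genes most like another.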

How the data were processed

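RNA-seq of 23 libraries was analyzed: control liver (n = 5), pre-metastatic liver (n = 9), and primary tumor (n = 9). The authors deposited the raw count of each gene in each library and its RPKM, the count scaled to the gene's length and to the library's total counts. Their processing notes name HISAT2, HTSeq 0.6.0, and mm10, while the annotation and the strand setting are not given in the sources used here. All 46 value columns were matched to samples by mouse and tissue, and recomputed RPKM differed by at most 1.75e-06 of the value. No library copied another (smallest chi-square per degree of freedom within a group 44.5).

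Counts were compared two-sided with edgeR 4.0.16 in R 4.3.3 (TMM, quasi-likelihood test, genes that reached 10 counts in 5 or more libraries, Benjamini-Hochberg adjustment). The same test was also run on counts simulated from these data, in which 200 genes were changed. Of 100 genes changed by a log2 unit, it called 67 for the livers, 62 for tumor against pre-metastatic liver, and 52 for tumor against control liver. A member that did not pass may therefore still differ. Few genes were changed there, so the scaling was not tested where many genes differ, as in the tumor. DESeq2 1.42.0, limma 3.58.1, other filters and scaling, exact rank-sum tests, the clock phase, and leaving out each mouse (for tumor against control liver, each control mouse only) were alternatives. Python 3.11.15 was used for levels and for ratios, which carry no test, and for exact rank-sum tests. The tumor and liver of a mouse pair because they come from the same animal, and after centering on each group their profiles had a mean r of 0.0813 (-0.0407 to 0.243), against -0.0104 for different mice, over 14187 genes. A value is limited by its count, and intervals cover counting error only.

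All 9 members are named, plus up to 4 genes per pathway list and comparison with the largest log2 fold changes among those with an adjusted p under 0.05, and the 2 genes most like each member. Of the genes so named, 26 of 27 against pre-metastatic liver were also among the 28 named against control liver, where not all are given again. Of the items so chosen, 1 gene and 1 upstream sequence are not reported here. Aldh8a1, Fkbp5, Tsc22d3, Cyp1a1, and the markers are given as further list genes. Genes gained or lost in the clock-phase fits, the tumors without M10 and M12, and the Ido1 ratio without M6 were chosen after the values were seen. The members, the lists, and the clock phases were chosen with earlier results of these data known.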

Additional observations from a re-analysis of the deposited data

Results flagged for a closer look

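In 36 groups of values for the members and their ratios, 4 had 1 library farther from the rest than Dixon's test allows at the 95% level. Chance alone gives about 1 in 20 if values are spread normally, which does not hold for RPKM near 0. Acmsd in the pre-metastatic liver of M6 was at 7.76 RPKM, where the other 8 lay between 0.707 and 3.88 RPKM. The log2 ratio of Acmsd to Qprt in that liver was not flagged. Afmid in the tumor of M2 was at 3.12 RPKM, where the other 8 lay between 1.47 and 2.19 RPKM. Ido1 was at 0.0501 RPKM in the pre-metastatic liver of M6 (others 0 to 0.0176 RPKM) and at 0.0103 RPKM in the control liver of C7 (others 0), which are 5 counts and 1 count. With all others at 0, any count in C7 would have been flagged.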

How the results depend on the processing

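Between the livers, Tdo2, Afmid, and Qprt kept their direction and stayed past the threshold under every alternative run. The number of members higher, 2 in the main test, was 1 among early-phase livers alone, where Ido2 was lost. Leaving out 1 liver at a time gave 2 to 4 members lower and 2 to 3 higher. Without C1 or without C5 the members lower were 2, as Acmsd and Kynu were lost. Acmsd had a log2 fold change between -2.29 and -1.41 (adjusted p = 0.0032 to 0.10) in these fits, and was also lost with limma-voom (adjusted p = 0.053) and in the exact rank-sum test of RPKM (p = 0.083, unadjusted). Kmo, never past the threshold, ranged from -0.20 to 0.0615 and changed sign without C1. Kynu stayed past the threshold but for 9 of the 14 fits that left out a liver. Haao passed with DESeq2 (adjusted p = 0.042), with upper-quartile scaling (0.044), with a filter of 50 counts (0.049), with the clock phase as a covariate (0.039), and without M1 or M7. With the mouse as the replicate block, tumor against pre-metastatic liver gave 16331 genes called against 16459, and the paired fit changed no call of a member (Tdo2 -11.98, Afmid -3.93, Qprt -10.14). All tumor calls of the 9 members kept direction and threshold under all alternatives run, with and without the block. Against control liver, the fits that left out 1 library covered the 5 control livers only, so single tumors were not left out there. Depth limits the ratios of Ido1 (7 and 1 counts in the livers) and Acmsd (10 counts in the tumors).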

Other observations

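Across the 9 tumors, the level of Ido1 was set against 11 interferon gamma genes and 6 marker lists, 17 relations in all, on log2(RPKM + 1), with exact permutation p values over all pairings. They were chosen after the levels had been seen. Each relation was also computed without the 2 tumors farthest from the median of its measure. For Ifng, Pearson's r was 0.752 (exact p = 0.0168, adjusted p = 0.143) and Spearman's rho 0.65 (exact p = 0.0666, adjusted p = 0.323). Without M4 and M5, r was 0.172 (exact p = 0.706). M4 and M5 were also the tumors highest in Ido1, so the choice favored a fall of r. For Irf1, r was 0.564 (exact p = 0.109) over all tumors and 0.891 (exact p = 0.0292) without M2 and M4. For the 6 endothelial markers, r was -0.855 (exact p = 0.00103, adjusted p = 0.0175) and rho -0.833 (exact p = 0.00827, adjusted p = 0.141), and without M4 and M5 r was -0.722 (exact p = 0.0675). The 15 relations other than those of Ifng and the endothelial markers, Irf1 among them, had adjusted p values of r of 0.144 or more. Early-phase and late-phase mice number 5 and 4, too few for a correlation within a phase.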
